A study of Homo sapiens with 6 samples.

Results

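The expression of 10 genes that define epithelial or mesenchymal identity was examined in H460 cells, an established line from human non-small-cell lung cancer, before and after depletion of the long intergenic noncoding RNA HKlincR1. The genes were *CDH1*, *EPCAM* and *ESRP1* on the epithelial side, *CDH2*, *VIM* and *FN1* as mesenchymal products, and *ZEB1*, *ZEB2*, *SNAI1* and *SNAI2* as transcription factors. They were taken as the rows of the expression values whose Ensembl identifier maps to these symbols in GENCODE v44 on GRCh37, which found all 10 among 57773 listed genes. Of the 6 libraries, 3 came from cells that received a non-targeting siRNA (siNT) and 3 from cells that received a single siRNA against HKlincR1 (siHKlincR1), each at 50 nM for 48 hours. Both groups were the same unmodified line, transfected with the same reagent, and the replicates were described as biological triplicates. The p-values, which ignore the replicate number unless stated, therefore measure the spread between these cultures within each group. The values are RPKM, that is, reads divided by the length of the gene model and by the size of the library, so levels can be compared between genes as well as between libraries.

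Epithelial cells are held together by E-cadherin, the product of *CDH1*, and mesenchymal cells carry vimentin filaments and deposit fibronectin. In an epithelial to mesenchymal transition, transcription factors of the ZEB and SNAIL families bind E-box motifs and repress *CDH1* and other epithelial genes. The miR-200 family of microRNAs represses *ZEB1* and *ZEB2* in turn, and the ZEB proteins repress the miR-200 genes, which makes a double-negative loop. *ESRP1* encodes an RNA-binding protein that sets the epithelial splice forms of several transcripts.

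HKlincR1, the targeted RNA, had 3.62, 3.47 and 3.83 RPKM in the siNT libraries and 0.563, 0.628 and 0.390 RPKM in the siHKlincR1 libraries, a reduction of 85.5% (limma adjusted p = 0.00245). Library totals ranged from 24980280 to 30521000 reads. Testing was limited to the 15451 genes that averaged 0.5 RPKM or more. A gene was called if its adjusted p was under 0.05 and its change exceeded 1.5-fold, which 56 genes (0.362%) did, 55 of them lower and 1 higher after siHKlincR1. A fit that blocked on the replicate number gave 204 calls (1.32%), 125 lower and 79 higher. The library siHKlincR1 3 stood on the siNT side of the first principal component (a score of -10.3, against 25.1 and 33.2 for the other siHKlincR1 libraries and -32.5 to -6.81 for siNT). The siNT library of the same number, siNT 3, had the lowest score, -32.5, against -6.81 and -8.72 for siNT 1 and siNT 2. Values without siHKlincR1 3 are given below, from a fit that kept siNT 3 and had no block. That fit called 518 of the 15451 tested genes, against 56 with all libraries.

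At baseline, *VIM* and *FN1* were among the most highly expressed genes, the 4 transcription factors were expressed at low to moderate levels, and *CDH1* and *CDH2* were nearly absent. In siNT cells, *VIM* averaged 387 ± 10.8 RPKM (SD, n = 3), a level above that of 99.8% of the 19404 protein-coding genes, and *FN1* averaged 109 ± 3.13 RPKM, above 98.8% of them. The transcription factors followed in the order *ZEB1* (5.48 ± 0.211 RPKM), *SNAI1* (3.10 ± 0.551), *ZEB2* (1.59 ± 0.0986) and *SNAI2* (0.817 ± 0.0527). No siNT value of any of these 6 genes overlapped the range of its neighbour in this order. *EPCAM* (0.0556 ± 0.0359 RPKM) and *CDH2* (0.0276 ± 0.0230) came next, and their siNT ranges overlapped. *CDH1* and *ESRP1* had no reads in any siNT library. RPKM divides by the full length of all annotated exons of a gene, so the level of a gene with many annotated isoforms, such as *FN1* with a model of 17315 nt or *ZEB2* with 17907 nt, is understated against that of a compact one.

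**Figure D1:**
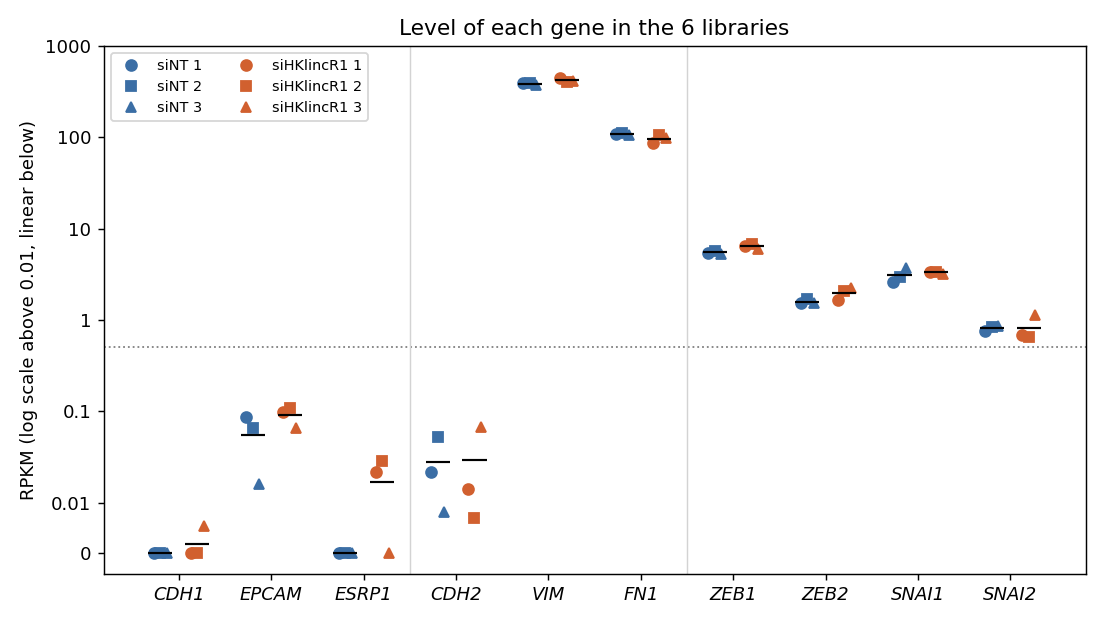
RPKM of each of the 10 genes (x axis) in each of the 6 libraries, on a y axis that is logarithmic above 0.01 RPKM and linear below. Blue symbols are siNT and orange symbols siHKlincR1, the symbol shape gives the replicate, black bars are group means and the dotted line marks 0.5 RPKM, the mean above which genes were tested. *VIM* and *FN1* sit near or above 100 RPKM, the 4 transcription factors between 0.652 and 6.75, and *CDH1*, *EPCAM*, *ESRP1* and *CDH2* at or below 0.110.

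The epithelial genes were at or near 0 in both groups. *CDH1* (chromosome 16, 68771195 to 68869440, plus strand) had 0 reads in 5 libraries and 1 read, the lowest number its RPKM value allows, in siHKlincR1 3. The 0 in siNT allows a level of up to 0.0160 to 0.0195 RPKM, taking 3 reads per library as the limit that a count of 0 allows. *ESRP1*, on chromosome 8, had 0 reads in the 3 siNT libraries and 3, 4 and 0 reads after siHKlincR1. Its siHKlincR1 values overlapped siNT through the library at 0 (exact two-sided permutation test, p = 0.40). *EPCAM* (chromosome 2, 47572297 to 47614740, plus strand), which encodes a surface adhesion protein of epithelial cells, had 6, 5 and 1 reads with siNT and 7, 8 and 5 reads with siHKlincR1. The groups overlapped (exact two-sided permutation test, p = 0.20). The limit of 3 reads covers counting error only, and a change in any of the 3 genes was not detectable at this depth.

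*CDH2* (chromosome 18, 25512843 to 25757910, minus strand), which encodes N-cadherin, the cadherin that mesenchymal cells usually carry in place of E-cadherin, was as low as *EPCAM*. It had 3, 8 and 1 reads with siNT and 2, 1 and 10 reads with siHKlincR1, so that the highest count and a count of 1 fell in the same group. Its groups overlapped (exact two-sided permutation test, p = 1.0). A noncoding gene on the opposite strand within *CDH2* (ENSG00000227279) was listed at 0.471 to 0.958 RPKM, above *CDH2* itself, and the sources used here do not say whether strand was used in the counting. Neither *CDH1*, *EPCAM* and *ESRP1* nor *CDH2* averaged 0.5 RPKM, so 6 of the 10 genes entered the test across genes.

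The E-box motif that the ZEB and SNAIL repressors recognise, CACCTG, or CAGGTG where it lies on the other strand, was searched for in the 250 bases before the start of the canonical transcript of each gene on GRCh37. In *CDH1* it was found 2 times, beginning 80 and 29 bases before the start. The same letters were found 3 times in the window of *EPCAM*, 2 times each in those of *ESRP1* and *ZEB1* and 1 time in that of *SNAI1*. They were not in the windows of *CDH2*, *VIM*, *FN1*, *ZEB2* and *SNAI2*. Thus 5 of the 10 windows held at least 1 match, against 17.3% of the windows of 19122 protein-coding genes. Of the 10, 4 held at least 2, against 2.43%. All 3 epithelial genes, which were at or near 0 RPKM, were among those with at least 2, and so was *ZEB1*, which was expressed. The windows of *CDH2*, *EPCAM*, *ZEB1*, *ZEB2* and *SNAI2* lie inside the annotated span of the gene, and those of *FN1* and *ESRP1* partly so. These windows are therefore not the bases upstream of the whole gene. Letter matches are not binding sites, and no binding was measured.

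**Figure D2:**
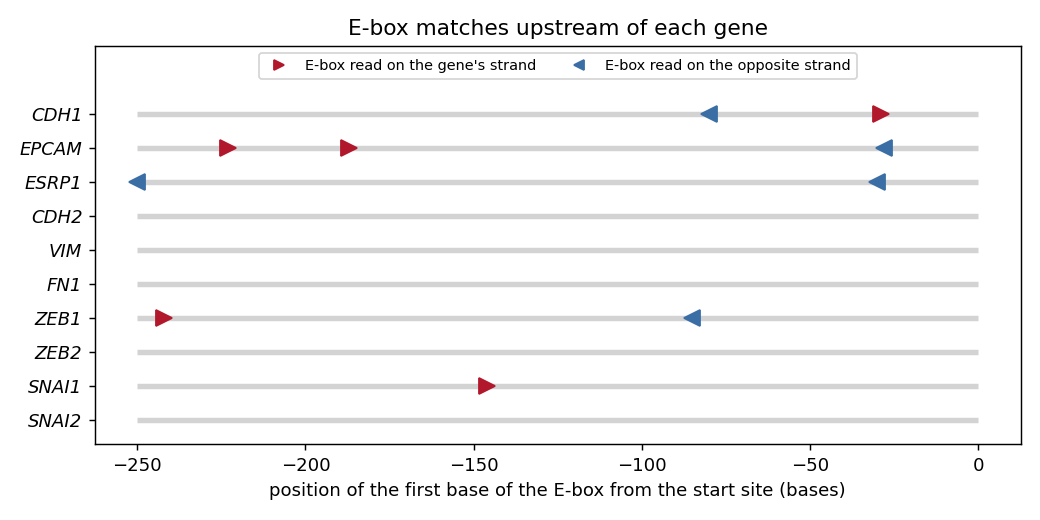
Positions of E-box matches in the 250 bases before the start of the canonical transcript of each of the 10 genes (y axis). The x axis gives the distance in bases of the first base of the motif from that start. Red triangles are matches on the strand of the gene and blue triangles matches on the opposite strand. *CDH1*, *EPCAM* and *ESRP1* each hold a match 28 to 30 bases before the start, while 5 genes hold none.

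*VIM* (chromosome 10, 17270240 to 17279592, plus strand), which encodes the intermediate filament protein vimentin, had 396, 390 and 376 RPKM in siNT 1 to 3 and 450, 401 and 418 RPKM in siHKlincR1 1 to 3. Every siHKlincR1 library was above every siNT library. The difference was small, 0.13 on the log2 scale (SE 0.07, 95% interval -0.04 to 0.29), or 9.1%, and was not called (limma adjusted p = 0.396). Between 46577 and 63652 reads per library stand behind these values. The opposite-strand gene *VIM-AS1* was listed at 0.322 to 0.625 RPKM.

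*FN1* (chromosome 2, 216225163 to 216300796, minus strand), which encodes the matrix protein fibronectin, had 107, 112 and 107 RPKM with siNT and 86.8, 105 and 97.6 RPKM with siHKlincR1. All siHKlincR1 libraries were below all siNT libraries, the opposite order to *VIM*. The log2 fold change was -0.18 (SE 0.08, 95% interval -0.37 to 0.02), and the gene was not called (limma adjusted p = 0.332). With the block the 95% interval was -0.33 to -0.03 and the limma adjusted p 0.140. The gene was not called in that fit either, where 1.32% of all tested genes were. The lowest value, in siHKlincR1 1, lay farther from the other 2 libraries of its group than the siNT libraries lay from each other.

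*ZEB1* (chromosome 10, 31607424 to 31818742, plus strand), a zinc finger repressor of epithelial genes, had 5.43, 5.72 and 5.31 RPKM with siNT and 6.44, 6.75 and 5.98 RPKM with siHKlincR1. The groups did not overlap, and siHKlincR1 3 was the closest to siNT. The log2 fold change was 0.22 (SE 0.08, 95% interval 0.03 to 0.40). Without the block it was the only one of the 6 tested genes with an unadjusted limma p under 0.05, as had 16.2% of all tested genes, and its limma adjusted p was 0.268. Without siHKlincR1 3 the log2 fold change was 0.26 and the limma adjusted p 0.0870, the lowest that any of the 6 genes reached in any fit. The opposite-strand gene *ZEB1-AS1* was listed at 0.648 to 1.29 RPKM.

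*ZEB2* (chromosome 2, 145121931 to 145278624, minus strand), the paralog of *ZEB1*, had 1.54, 1.71 and 1.53 RPKM with siNT and 1.67, 2.08 and 2.22 RPKM with siHKlincR1. The groups overlapped, since siHKlincR1 1 lay below siNT 2. The log2 fold change was 0.29 (SE 0.14, limma adjusted p = 0.332), and without siHKlincR1 3 it was 0.21 (limma adjusted p = 0.356). Its 95% interval of -0.03 to 0.61 was the only one to reach past a 1.5-fold change.

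*SNAI1* (chromosome 20, 48599517 to 48605423, plus strand), which encodes the repressor SNAIL, had 2.63, 2.95 and 3.70 RPKM with siNT and 3.38, 3.36 and 3.19 RPKM with siHKlincR1. All siHKlincR1 values fell inside the siNT range. The log2 fold change was 0.11 (SE 0.13, 95% interval -0.20 to 0.42, limma adjusted p = 0.694), with 123 to 164 reads per library. *SNAI2*, on chromosome 8, which encodes the related repressor SLUG, had 0.758, 0.833 and 0.860 RPKM with siNT. After siHKlincR1 it had 0.678, 0.652 and 1.13 RPKM, so that 2 libraries lay below siNT and siHKlincR1 3 above it. The log2 fold change was -0.03 (SE 0.23, 95% interval -0.58 to 0.52, limma adjusted p = 0.953), with 43 to 77 reads per library. Without siHKlincR1 3 it was -0.26 (limma adjusted p = 0.398).

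None of the 6 tested genes was called without or with the block, against 0.362% and 1.32% of all tested genes, and none by voom on the reads. With the block the limma adjusted p was 0.202 for *VIM*, 0.140 for *FN1*, 0.116 for *ZEB1* and 0.207 for *ZEB2*. For *SNAI1* and *SNAI2* it was 0.632 and 0.934. The groups did not overlap for 3 of the 6 (*VIM* and *ZEB1* higher, *FN1* lower), against 22.0% of all tested genes, and for each of them the exact two-sided permutation test gave p = 0.10, the smallest that 3 libraries against 3 allow. Without siHKlincR1 3, the log2 fold change was 0.13 for *VIM*, -0.19 for *FN1* and 0.13 for *SNAI1* (limma adjusted p = 0.283, 0.228 and 0.593). The median log2 fold change of the 6 genes in all libraries was 0.12, and that of all tested genes 0.00. The 95% intervals bound the change to between 0.973-fold and 1.22-fold for *VIM*, 0.773-fold and 1.01-fold for *FN1* and 1.02-fold and 1.32-fold for *ZEB1*. The widest was that of *SNAI2*, from 0.669-fold to 1.43-fold. The values come from whole cultures, in which fewer cells of a type and less RNA per cell cannot be told apart.

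**Figure D3:**
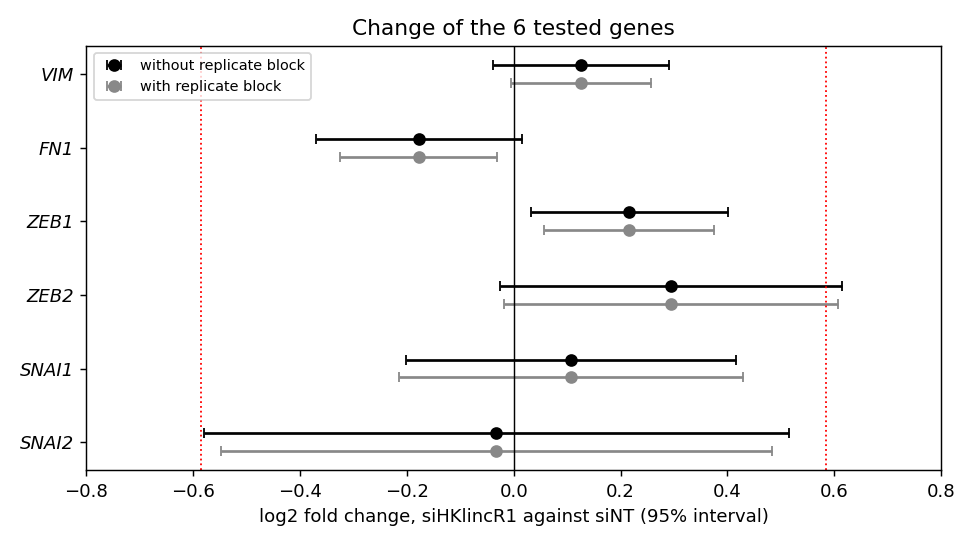
Log2 fold change of siHKlincR1 against siNT (x axis) for the 6 tested genes (y axis), with 95% intervals from limma without the replicate block (black) and with it (grey). Red dotted lines mark a 1.5-fold change. The intervals of *ZEB1* lie above 0 in both fits, that of *FN1* lies below 0 with the block, and none lies wholly beyond the 1.5-fold lines, with estimates from -0.18 to 0.29.

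The miR-200 family, the microRNA arm of the loop with *ZEB1* and *ZEB2*, falls into 2 seed groups, and the mature sequences from RefSeq (GRCh38.p14) are shown with the seed, bases 2 to 8, in capitals so that the sites in the ZEB transcripts can be read against them.

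hsa-miR-200b-3p: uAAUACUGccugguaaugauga
hsa-miR-200c-3p: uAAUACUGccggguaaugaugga
hsa-miR-429: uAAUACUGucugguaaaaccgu
hsa-miR-200a-3p: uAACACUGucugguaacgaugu
hsa-miR-141-3p: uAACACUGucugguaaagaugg

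The first 3 share one seed and pair with CAGTATT in a transcript, and the last 2 pair with CAGTGTT. The 3′ UTR of *ZEB1* (2540 nt in its canonical transcript) held 6 and 3 such sites, and that of *ZEB2* (5370 nt) held 5 and 4. *FN1* held 2 of the first kind, *SNAI2* 1, and *ESRP1* 1 of each, while *CDH1*, *CDH2*, *VIM*, *EPCAM* and *SNAI1* held none. At least 1 of the first kind was found in 16.5% of 18638 3′ UTRs and at least 1 of the second in 18.6%. Of the 4447 3′ UTRs as long as that of *ZEB1* or longer, 0.180% held 9 or more in all, the number found in each ZEB transcript. This share includes *ZEB1* and *ZEB2* themselves, whose own number set the limit. The first site of each kind in *ZEB1* (GRCh37, chr10:31816553-31816575 and chr10:31816966-31816988, plus strand, site in capitals) reads as follows.

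ZEB1 site of the first kind: tatcttatCAGTATTatcactct
ZEB1 site of the second kind: atcagaatCAGTGTTtgtgattg

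The rows of *MIR200A*, *MIR200B*, *MIR429*, *MIR200C* and *MIR141* had 0 reads in all 6 libraries, as had *MIR200CHG*, the polyadenylated host gene of miR-200c and miR-141. Libraries of polyA RNA do not measure mature microRNAs, so of these rows that of the host gene is the informative one.

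The siRNA has a seed of its own. The sense strand of siHKlincR1_2 is present in all 4 annotated transcripts of HKlincR1, and the letters that its antisense strand would recognise through bases 2 to 8 are in capitals.

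siHKlincR1_2: gaaguauacucGUGUGCUu

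Written as DNA, this seed site, GTGTGCT, occurs in 12.3% of 18638 3′ UTRs. Among the 10 genes it occurred 1 time in *ZEB1* and 1 time in *CDH1*.

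ZEB1 (chr10:31817054-31817076): caagacctGTGTGCTgtaagtgc
CDH1 (chr16:68867815-68867837): aaaaatttGTGTGCTtctgctca

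The part of these sites in the values of *ZEB1* and *CDH1* was not tested, and no second siRNA was sequenced in these libraries.

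The wider set around these genes comprised 11 lists with 144 genes in the expression values, of which 94 were tested. Of these, 1 was called after siHKlincR1, *SOX9*, against 0.362% of all tested genes, and 25 had groups that did not overlap (26.6%, against 22.0% of all tested genes). The median log2 fold change of the 94 genes was -0.06. Without siHKlincR1 3, 7 of the 94 were called, against 518 of all 15451 tested genes.

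**Figure D4:**
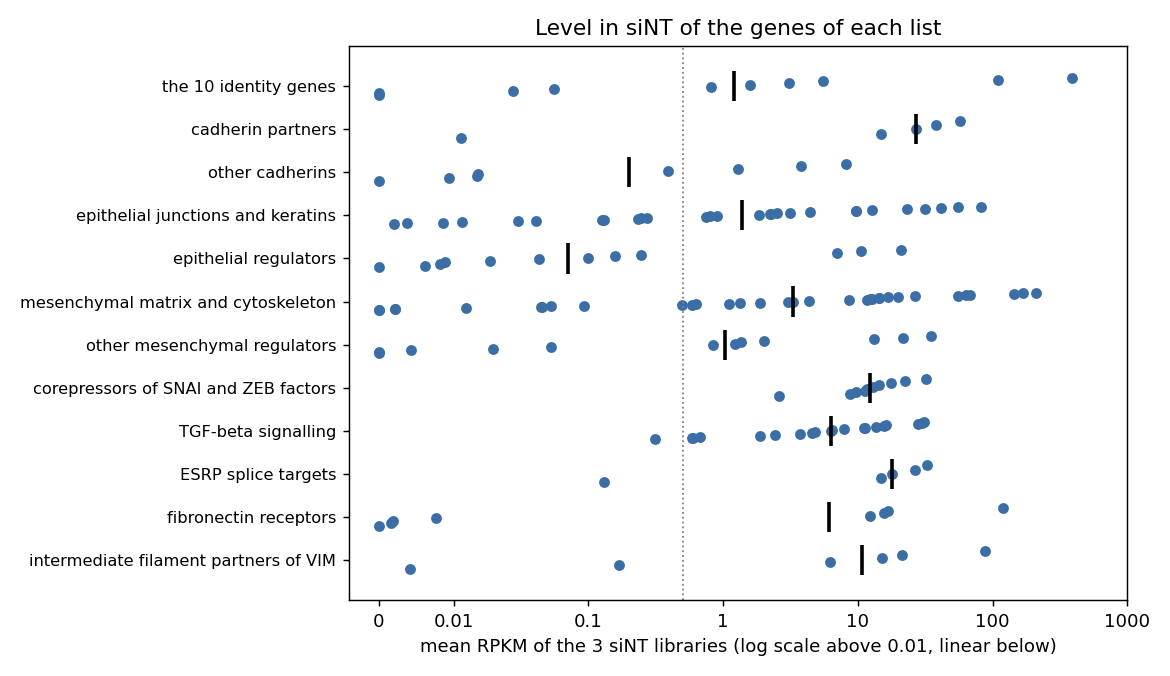
Mean RPKM of the 3 siNT libraries (x axis, logarithmic above 0.01 RPKM and linear below) for every gene of the 10 identity genes and of the 11 lists (y axis). Each point is a gene, black bars are list medians and the dotted line marks 0.5 RPKM. The epithelial regulators have a median of 0.0709 RPKM and the mesenchymal matrix and cytoskeleton genes one of 3.28, and both lists span from 0 to well above 10 RPKM.

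The cytoplasmic partners of the cadherins were present although *CDH1* and *CDH2* were not. Alpha-catenin *CTNNA1* had 57.2 ± 1.13 RPKM in siNT, beta-catenin *CTNNB1* 27.0 ± 1.34, p120-catenin *CTNND1* 14.9 ± 0.257 and plakoglobin *JUP* 38.2 ± 2.56 (SD, n = 3). Of the 4 tested genes among 5, none was called, and all 4 had a negative log2 fold change, with a median of -0.11. *JUP* had the largest, from 36.2, 37.3 and 41.1 RPKM to 29.4, 29.0 and 35.2 RPKM (-0.29, SE 0.10, limma adjusted p = 0.237, and 0.0540 with the block). Among 8 other cadherins 3 were tested and none was called. *CDH24*, a classical cadherin of the type II group, had 3.78 ± 0.259 RPKM in siNT and -0.33 on the log2 scale (limma adjusted p = 0.295), and *CDH11*, the cadherin of osteoblasts and other mesenchymal cells, 1.28 ± 0.367 RPKM and 0.29 (limma adjusted p = 0.535).

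In the epithelial lists, keratins and some junction genes were expressed while most of the regulators were near 0. Of 12 epithelial regulators 3 were tested and none was called. *ESRP2*, the paralog of *ESRP1*, had 0.0430 ± 0.00807 RPKM in siNT and *GRHL2*, an activator of *CDH1* and other junction genes, 0.00815 ± 0.00902. The tested 3 included *KLF5* (6.97 ± 0.403 RPKM, log2 fold change 0.26, limma adjusted p = 0.264) and *FOXA1* (10.5 ± 1.37 RPKM, -0.24, limma adjusted p = 0.312), whose groups did not overlap. Of 28 junction and keratin genes 17 were tested and none was called, with a median log2 fold change of -0.06. The largest differences were those of the mucin *MUC1* (5.21, 4.34 and 3.72 RPKM against 2.75, 2.84 and 2.91, -0.61, SE 0.13, limma adjusted p = 0.121) and the tight junction gene *MARVELD2* (2.35, 2.27 and 2.17 against 3.41, 4.14 and 2.26, 0.47, limma adjusted p = 0.312). In *MARVELD2*, siHKlincR1 3 lay inside the siNT range, and without it the gene was called (0.71 on the log2 scale, limma adjusted p = 0.0294). In that fit 518 of the 15451 tested genes were called. With all libraries and the block *MARVELD2* was not called (limma adjusted p = 0.151).

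The mesenchymal matrix and cytoskeleton list held 33 genes, of which 23 were tested and none was called. The median log2 fold change was 0.01. *COL1A1*, a collagen I chain, had 0.998, 1.08 and 1.23 RPKM against 0.548, 0.419 and 0.773 (-0.85, SE 0.23, limma adjusted p = 0.196, and called without siHKlincR1 3, at -1.05 and 0.0390). With all libraries and the block *COL1A1* was not called (limma adjusted p = 0.0807). *TNC*, which encodes the matrix protein tenascin C, had 1.27, 1.15 and 1.60 RPKM against 0.627, 1.05 and 0.715 (-0.70, SE 0.22, limma adjusted p = 0.236). *S100A4* was also called without siHKlincR1 3 (-0.66, limma adjusted p = 0.0344), and is named after its value was seen.

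Among 12 other mesenchymal regulators 7 were tested. *SOX9*, which encodes a transcription factor of cartilage and of several epithelial progenitors, fell from 11.8, 12.8 and 14.7 RPKM to 7.06, 7.91 and 8.11 RPKM, so that every siHKlincR1 library was well below every siNT library. Its log2 fold change was -0.76 (SE 0.10, limma adjusted p = 0.0400 without the block and 0.0164 with it). The call was lost on leaving out any one of the libraries other than siHKlincR1 3 (limma adjusted p from 0.101 to 0.211). The 3′ UTR of *SOX9* held 1 copy of the seed site of the siRNA, a site found in 12.3% of 18638 3′ UTRs. Those of *CDH24*, *FOXA1*, *TCF4* and *CD44*, which were not called, also held 1 copy each. The part of the site in the result of *SOX9* was not tested. *TWIST1*, a further master regulator of the mesenchymal state, had 0 reads in siNT. *TCF4* had -0.22 on the log2 scale (limma adjusted p = 0.474). The 10 corepressors of the SNAIL and ZEB factors were all expressed, with a median of 12.3 RPKM, and none was called. The largest differences were those of the Polycomb genes *EZH2* (17.1, 17.9 and 17.8 RPKM against 20.7, 22.4 and 19.2, 0.23, limma adjusted p = 0.238) and *EED* (-0.22, limma adjusted p = 0.331).

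The TGF-beta pathway, the best-known inducer of the *SNAI* and *ZEB* genes, had 18 of 20 genes tested and none called without the block. In siNT cells, the ligand *TGFB1* had 31.1 ± 4.33 RPKM, the receptors *TGFBR1* and *TGFBR2* 16.1 ± 0.872 and 6.39 ± 0.713, and the signal transducers *SMAD2*, *SMAD3* and *SMAD4* 13.6 ± 0.495, 4.81 ± 0.375 and 3.69 ± 0.185 (SD, n = 3). *TGFBR1* had 17.1, 15.6 and 15.7 RPKM with siNT and 9.30, 12.8 and 11.8 RPKM with siHKlincR1, without overlap (-0.52, SE 0.12, limma adjusted p = 0.156). *ID2* and *ID3*, inhibitors of helix-loop-helix factors and targets of the BMP branch, had log2 fold changes of -0.59 (SE 0.27, limma adjusted p = 0.322) and -0.57 (SE 0.21, limma adjusted p = 0.280). *ID2* had 6.21, 7.37 and 10.2 RPKM against 4.10, 4.31 and 7.52, lower in each same-numbered pair though the groups overlapped, and with the block it was called (limma adjusted p = 0.0441). *ID3* passed the adjusted p with the block (limma adjusted p = 0.0328) but not the 1.5-fold limit.

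The remaining lists follow *ESRP1*, *FN1* and *VIM*. Of 5 transcripts that the ESRP proteins splice, 4 were tested and none was called. *CD44* was the largest (33.2, 34.7 and 29.9 RPKM against 29.1, 26.7 and 26.5, -0.25, SE 0.08, limma adjusted p = 0.237), and gene-level RPKM does not show its splice forms. Of 8 fibronectin receptor subunits 4 were tested and none was called. Those tested included *ITGB1* (120 ± 7.59 RPKM in siNT), *ITGA5* (12.3 ± 0.481), which together form the main fibronectin receptor, and *ITGB5* (-0.27, SE 0.08, limma adjusted p = 0.229). Of 6 intermediate filament partners of vimentin 4 were tested and none was called, with a median log2 fold change of -0.31. *NES*, the filament protein nestin, had 6.08, 6.13 and 6.58 RPKM against 3.38, 2.42 and 6.05 (-0.75, SE 0.29, limma adjusted p = 0.288, and called without siHKlincR1 3, at -1.10 and 0.0263). With all libraries and the block *NES* was not called (limma adjusted p = 0.122). *SYNM*, the filament protein synemin, had 14.2, 13.9 and 17.1 RPKM against 9.93, 10.3 and 12.6 (-0.46, SE 0.12, limma adjusted p = 0.182). It passed the adjusted p with the block (limma adjusted p = 0.0315) and without siHKlincR1 3 (-0.56, limma adjusted p = 0.0348), but not the 1.5-fold limit.

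**Figure D5:**
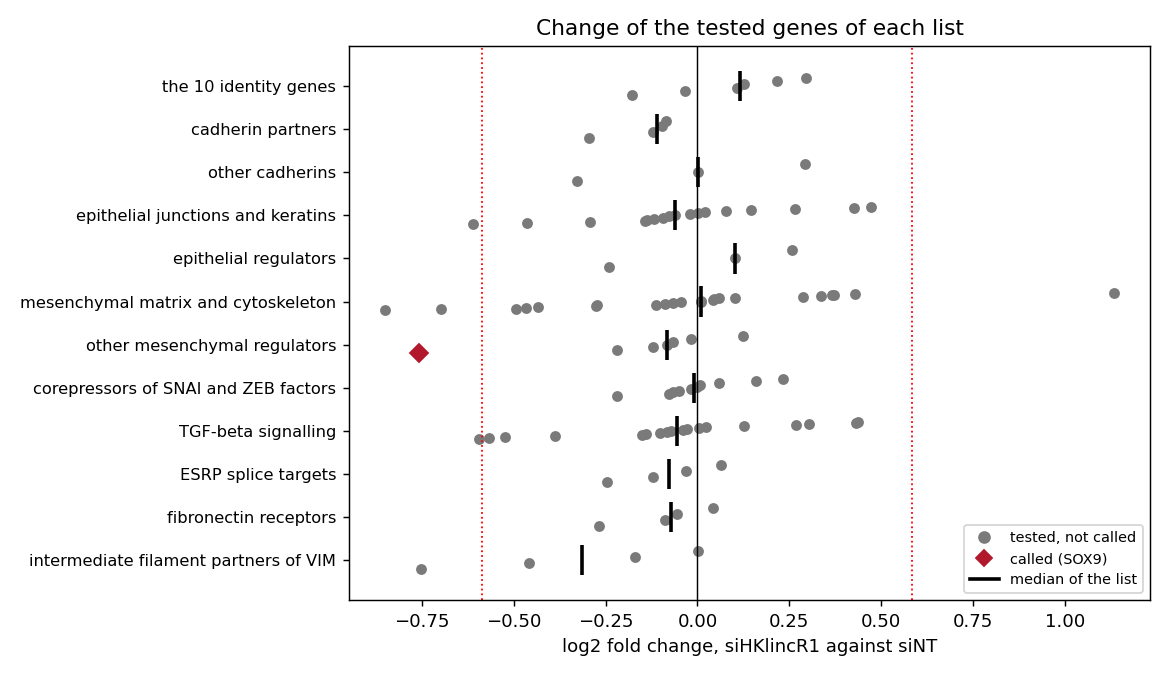
Log2 fold change of siHKlincR1 against siNT (x axis) for the tested genes of the 10 identity genes and of the 11 lists (y axis). Grey points are genes that were not called, the red diamond is *SOX9*, black bars are list medians and red dotted lines mark a 1.5-fold change. The points of each list spread to both sides of 0 except for the cadherin partners.

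Markers of other cell types were read beside these levels. The 4 simple epithelial keratins summed to 151 to 172 RPKM with siNT and 154 to 170 RPKM with siHKlincR1, with *KRT18* at 82.4 ± 3.27 RPKM and *KRT8* at 31.5 ± 0.681 RPKM in siNT, so that epithelial keratins were present together with high *VIM*. The 7 markers of differentiated lung epithelium summed to at most 0.0556 RPKM in any library, and 2 of them had 0 reads throughout. All 4 squamous (at most 0.0270 RPKM), 4 neuroendocrine (at most 0.727), 5 leukocyte (at most 0.313) and 3 matched endothelial markers (at most 0.0217) had siNT means under 0.5 RPKM. The 6 fibroblast markers summed to 1.99 to 2.19 RPKM with siNT and 1.38 to 1.96 RPKM with siHKlincR1, without overlap, and their members went opposite ways. Group means with siNT and siHKlincR1 were 1.10 and 0.580 RPKM for *COL1A1*, 0.358 and 0.209 for *LUM* and 0.627 and 0.879 for *PDGFRB*, while *COL1A2*, *DCN* and *PDGFRA* had siNT means of 0.00218, 0 and 0 RPKM. The part of other cell types in the results was not tested.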

How the data were processed

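RNA of H460 cells was measured in 3 siNT and 3 siHKlincR1 libraries. The authors prepared strand-specific polyA libraries, used CASAVA 1.8.2 and featureCounts on Ensembl v74 gene models of GRCh37, and deposited 1 RPKM value per gene and library. The aligner is not given in the sources used here, and neither is the use of strand. Which siRNA was sequenced, siHKlincR1_2, was taken from the study's methods. The members and lists were chosen with earlier results of these data known.

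Because the RPKM values were not rounded, library totals and reads (or read pairs) were worked back from them, and 100% of nonzero values came out as whole reads (tolerance 1e-05). Totals ranged from 24980280 to 30521000. Tests used limma 3.58.1 in R 4.3.3 (lmFit, eBayes with trend) on log2(RPKM + 0.1), a scale that understates the change of low genes, for the 15451 genes that averaged 0.5 RPKM or more, with Benjamini-Hochberg adjustment over all of them. A call needed an adjusted p under 0.05 and a fold above 1.5. On simulated data in which 200 genes were given a log2 change of 1.5, the fit recovered 93.0% of them and falsely called 11 others. That change is larger than any estimate for the tested identity genes, so the recovery of changes of their size was not tested. The authors' own tests used read counts, which were not used here beyond the reads worked back from RPKM.

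Replicate numbers come from the sample titles. Deviations of same-numbered libraries from their group means correlated at 0.142, 0.137 and 0.266, and those of other pairs at -0.209 to 0.113, so the numbers were taken to pair the samples. Values are still from the fit without the block unless stated, and that fit leaves differences between replicate numbers in the spread. Blocked values are given for the tested identity genes, where they change a call and for some other list genes. Alternatives changed the pseudocount, the filter, the scaling, the variance model and the block, and left out each library. All 10 genes are named, with the targeted gene, fixed counterparts, called list genes and up to 3 list genes with the largest change (at least 0.2 on the log2 scale). Some items that meet this rule are not reported here. Promoters and 3′ UTRs are those of canonical transcripts in GENCODE v44 on GRCh37, searched on both strands for E-boxes and on the transcript's strand for seed sites. The E-box windows of *EPCAM*, *FN1*, *ZEB1*, *ZEB2*, *SNAI2* and *ESRP1* overlap annotated exons of other transcripts.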

Additional observations from a re-analysis of the deposited data

How the results depend on the processing

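None of the 6 tested identity genes was called under any of the 16 alternative fits, and 92 of their 95 alternative values kept the direction. The replicate block, the filters and the variance trend leave the log2 fold change itself unchanged, so those alternatives could not alter the direction. The 3 that did not were those of *SNAI2*, whose log2 fold change ranged from -0.26 to 0.09 on leaving out 1 library and was 0.00097 without siNT 3, 0.07 without siHKlincR1 1 and 0.0934 without siHKlincR1 2. The number of called genes, 56, was 204 with the replicate block, 196 with median centring and the block (an alternative chosen after seeing the data), 17 without the variance trend and 89 with voom. It ranged from 7 to 518 on leaving out 1 library, and the 518 were without siHKlincR1 3. The number of called list genes, 1, was 2 with the replicate block, 0 with no filter on low values, 0 with median centring and 0 without the trend, and ranged from 0 to 7 on leaving out 1 library, with 7 again without siHKlincR1 3. The cause was not tested. The block changed no other call of a named gene, and the reduction of HKlincR1 was 85.4% over same-numbered pairs. Without the limit on the fold change 70 genes were called. *SNAI2* did not pass a filter of at least 1 RPKM, and *CDH1*, *ESRP1*, *EPCAM* and *CDH2*, at 0 to 10 reads per library, are too low for a change to be seen at this depth.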

Other observations

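Since *CDH1* and *CDH2* were nearly absent while their catenin partners were expressed, all genes named *CDH* with a number were read off, a survey made after the values were seen. Of 23 such genes, 6 reached the level at which genes were tested and 16 averaged under 0.1 RPKM in siNT. The highest was *CDH19*, a type II cadherin, with 18.9, 19.1 and 20.0 RPKM with siNT and 15.2, 17.3 and 19.5 RPKM with siHKlincR1. *CDH10*, a type II cadherin known from brain, followed with 14.8, 16.9 and 14.2 RPKM with siNT and 13.1, 14.3 and 20.2 RPKM with siHKlincR1. *CDH13*, the cadherin anchored by a lipid and lacking the cytoplasmic part that binds catenins, had 8.23 ± 0.187 RPKM in siNT (SD, n = 3). *CDH7* had 5.44 ± 0.113 RPKM, and its siHKlincR1 values (5.19, 4.66 and 5.07 RPKM) lay below all siNT values. The siNT mean of *CDH19* was thus 19.3 RPKM, against 0.0276 for *CDH2* and 0 for *CDH1*. None of the 6 that were tested was called after siHKlincR1 by limma without or with the block, against 0.362% and 1.32% of all tested genes.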
